A study of Mus musculus with 18 samples.

Results

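The comparison described here set the spleens of diabetic mice that received microbiota from control donors (Con-FMT) against the spleens of mice made diabetic and given no microbiota (STZ). It rests on 6 of the 18 libraries of the study, 3 in each group, chosen by their treatment labels, and on the 12324 of 19320 genes that reached 1 RPKM (read number corrected for gene length and sequencing depth) in at least 3 of those 6 libraries. All animals were male mice of the outbred ICR stock and 10 weeks old. Both groups received a single injection of streptozotocin (STZ), a toxin that destroys the insulin-producing beta cells of the pancreas. After the same injection, the Con-FMT group was also given small intestinal contents by mouth once a day. These came from donor mice dosed with water only, and were pooled over donors, so every recipient got the same mixture. No sham transplant is described for the STZ group, so the effect of the microbiota and that of the dosing cannot be told apart. The study also held untreated controls (Con), whose values are printed here as the background. It further held diabetic mice given contents from donors fed alginate oligosaccharide (AOS) at 10 mg per kg (A10-FMT). The remaining groups were given AOS at 10 mg per kg and no transplant, without STZ (A10) or with it (STZ-A10). The labels number the 3 libraries of a group and do not say that each came from another animal, so p-values measure only the spread between these samples.

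The spleen filters blood and is the largest secondary lymphoid organ, packed with B and T lymphocytes. In its white pulp, B cells that meet antigen with the help of T cells form germinal centres, where their antibody genes are altered and only cells with improved receptors survive. In the red pulp, macrophages take up aged red cells and recycle their iron, and in mice red cells and platelets are also made there. Products of gut bacteria reach the spleen through the blood, and germinal centres of mucosal lymphoid tissue depend on the gut microbiota. Glucocorticoids, zinc and shortage of amino acids each switch on a known set of genes in many tissues, which makes such sets readable in a bulk spleen profile.

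Spleen identity was clear in all 6 libraries, with Tlx1, a transcription factor needed to form the spleen, at 11.96 to 20.7 RPKM and the B cell receptor gene Cd79a at 516 to 971 RPKM. The Con-FMT libraries were more alike (pairwise Pearson r over genes of 0.988 to 0.992) than the STZ libraries (0.961 to 0.982). STZ replicate 1 stood apart. The adult and embryonic globin genes took 10.4% of its summed RPKM, against 32.8% and 35.6% in the other STZ libraries and 21.8% to 32.0% in Con-FMT. The depth of the libraries is unknown, since the file holds no counts. The main results that moved with this library are given with and without it.

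A single gene differed between the groups once the test was adjusted over all genes, which is 0.00811% of the 12324 tested (limma on log2(RPKM + 1), 2-sided, Benjamini-Hochberg threshold 0.05). Without adjustment, 605 genes (4.91%) were higher and 407 (3.3%) were lower in Con-FMT at a p under 0.05. The libraries of the groups did not overlap at 825 genes (6.69%) that were higher and 771 (6.26%) that were lower. The median log2 fold change over all genes tested was -0.00075, so there was no general shift. STZ replicate 1 decided how many genes passed. Without it, 874 genes (7.09%) passed the adjusted threshold, 584 of them (4.74%) higher and 290 (2.35%) lower, and without STZ replicate 3 the number was 48. STZ replicate 1 was singled out with its values known, and the fit without it rests on fewer STZ libraries. Counts from that fit, here and below, show how far results depend on this library and add no support. The adjusted p of every other gene over all 6 libraries missed 0.05.

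The gene that passed was Kap, which encodes the kidney androgen-regulated protein and lies on the minus strand of chromosome 6 at 133849851 to 133853762 (mm10). Its RPKM was 23.7, 25.9 and 20.9 in the STZ libraries and was listed at 0 in all 3 Con-FMT libraries, with an adjusted p of 3.76e-06. The groups were fully apart, and Kap passed in 15 of 15 alternative settings in which it was tested. In Con the gene stood at 13.3, 20.1 and 21.0, whereas the A10-FMT libraries lay between 0 and 0.14. It was also at or near 0 in mice given AOS and no transplant, at 0 in all 3 libraries without STZ and at 0.6, 0.3 and 0 in those with STZ, so among the 6 groups of the study only Con and STZ held it above 1 RPKM. Kap was thus lower in Con-FMT than in STZ, as it was in the groups given AOS without a transplant, and its level in STZ was close to that in Con.

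Kap is best known as a transcript of the proximal tubule of the kidney. Of the 35 other kidney genes looked at, 9 (25.7%) were above 0 in all STZ libraries and at 0 in all Con-FMT libraries, and none showed the reverse. Over all 19320 genes that pattern held for 46 (0.238%) and the reverse for 32. Only genes listed at 0 in a whole group can show either, and most of the kidney genes lay under 1 RPKM. The shares are therefore not like for like. The 9 were Umod, Slc22a6, Slc22a8, Slc7a13, Miox, Kl, Akr1c21, Acsm2 and Calb1. Miox, an enzyme of inositol breakdown, was at 0.38, 0.44 and 0.44 RPKM in STZ, and at 0 in each Con-FMT library. Slc22a6, a transporter of organic anions, was at 0.19, 0.17 and 0.03 in STZ and again at 0 in Con-FMT. In Con, Miox was at 0.29, 0.15 and 0.15 and Slc22a6 at 0.08, 0.09 and 0.09. Of the 35, only these 2 were above 0 in all Con and STZ libraries and at 0 in all others, as were 4 of all 19320 genes. All 9 stayed under 1 RPKM. The same list summed without Kap to 99.0 to 169.7 RPKM in STZ and 118.0 to 144.0 in Con-FMT, but most of that was Napsa, an aspartic protease that spleen cells also express. The part of kidney transcripts in the Kap result was not tested.

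**Figure D1:**
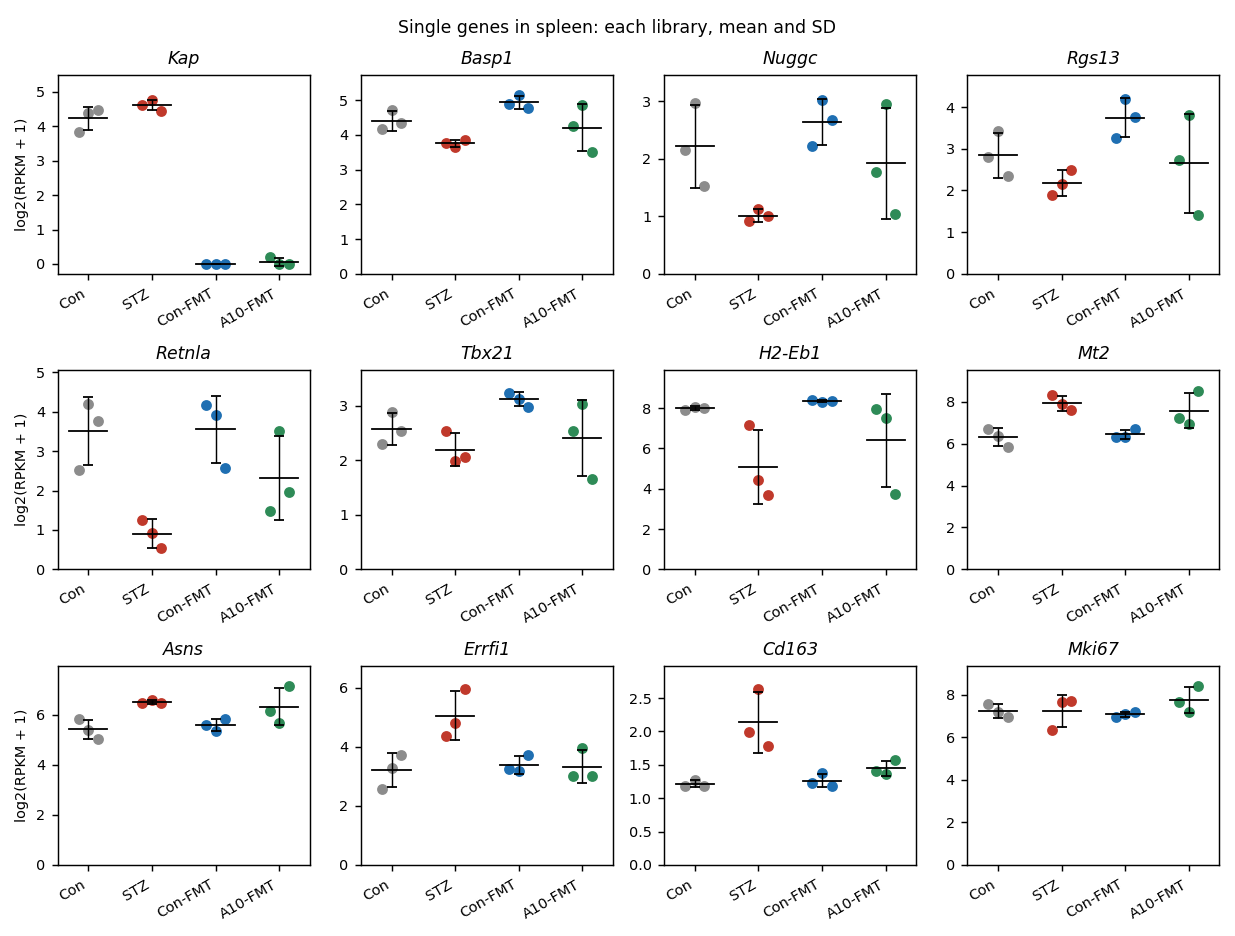
Level of 12 genes on the log2(RPKM + 1) scale (vertical axis) in each of the 3 libraries of the Con, STZ, Con-FMT and A10-FMT groups, with the group mean (bar) and SD (whisker). Kap was at 0 in every Con-FMT library, Basp1, Nuggc, Rgs13, Retnla, Tbx21 and H2-Eb1 were higher in every Con-FMT library than in any STZ library, and Mt2, Asns, Errfi1 and Cd163 were lower, while Mki67 overlapped.

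Of the 12 genes that the naming rule picked as higher in Con-FMT, 4 belong to germinal centre B cells. Nuggc, a nuclear GTPase of germinal centre B cells, was at 3.67, 7.13 and 5.41 RPKM in Con-FMT against 0.88, 1.19 and 1.00 in STZ. Even the lowest Con-FMT library was well above the highest STZ library, and the difference was 1.63 ± 0.20 (log2 fold change ± SE, adjusted p = 0.144). Con spread more widely, at 3.46, 6.81 and 1.88.

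Rgs13, which damps chemokine receptor signalling in these cells, was at 8.62, 17.4 and 12.5 RPKM in Con-FMT and at 2.69, 3.49 and 4.62 in STZ. S1pr2, the receptor that keeps B cells inside the germinal centre, was at 7.37, 9.85 and 6.98 against 3.43, 4.09 and 3.28. Both showed groups fully apart, with log2 fold changes of 1.56 ± 0.25 and 0.97 ± 0.15. Bcl6, the transcription factor that defines germinal centre B cells, was at 16.6, 17.9 and 15.7 in Con-FMT and at 10.8, 8.99 and 11.7 in STZ. Mef2b, which drives Bcl6, was at 7.66, 10.8 and 8.0 against 2.03, 3.92 and 1.14. Both of these were also apart, with log2 fold changes of 0.63 and 1.61.

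A list of 12 germinal centre genes was drawn up after the first of them had been noticed, so its counts describe the members and support nothing beyond them. Of the 12 tested, 10 were higher at an unadjusted p under 0.05 and the same number did not overlap, against 4.91% and 6.69% of all genes. The other two, Efnb1 and Plxnb2, had log2 fold changes of 0.22 and 0.16. The median of the list was 1.06, and it lay between 0.90 and 1.20 when any single library was left out. Without STZ replicate 1 it was 0.99, and 7 members passed the adjusted threshold, all higher (4.74% of all genes). Summed over the list, Con-FMT stood at 112 to 160.3 RPKM and STZ at 63.4 to 71.3. Con reached 85.4 to 135.7, overlapping Con-FMT. In these bulk samples, fewer cells of a type and less RNA per cell cannot be told apart, here or at any list below.

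T cell genes lay higher in Con-FMT as a group. This list and those below were chosen with earlier results of these data known. Their counts therefore describe the members and add no independent support. Of 35 tested, 32 had a positive fold change, 21 were higher at an unadjusted p under 0.05 and none was lower, and 18 did not overlap, against 4.91% of all genes higher at that p and 6.69% higher without overlap. The median was 0.45, with a range of 0.32 to 0.55 over the fits that left out a library. Lat, the adaptor through which the T cell receptor signals, was at 70.5, 75.0 and 63.3 RPKM in Con-FMT and at 50.7, 38.2 and 39.9 in STZ (log2 fold change 0.69 ± 0.13, adjusted p = 0.247). Cd4, the co-receptor of helper T cells, was at 40.8, 46.6 and 47.9 against 35.2, 25.4 and 30.6. Cd28, which delivers the second activating signal, was at 8.92, 10.5 and 11.7 against 7.03, 5.08 and 6.97. In each of these genes all Con-FMT libraries exceeded all STZ libraries. The regulatory T cell factor Foxp3 overlapped, at 3.50, 4.26 and 3.68 against 4.13, 2.97 and 2.68. STZ replicate 1 was the STZ library nearest to the Con-FMT mean for 27 of the 35. Leaving out the nearest library tends to widen a difference by construction. Without it 17 of the 35 passed the adjusted threshold, all higher, against 4.74% of all genes, which adds no support of its own.

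Icos and Pdcd1, receptors carried by the helper T cells of the follicle, were also higher. Icos was at 7.69, 8.20 and 7.69 RPKM in Con-FMT and at 5.96, 4.71 and 5.27 in STZ. Pdcd1 was at 2.81, 2.94 and 2.45 against 1.57, 1.85 and 1.28. Sh2d1a, an adaptor that follicular helper cells need to hold on to B cells, was at 7.89, 9.75 and 9.47 against 5.88, 4.0 and 4.86. None of the groups overlapped in these genes. Cxcr5, the receptor that guides such cells into the follicle and that B cells carry as well, did overlap, at 69.8, 67.8 and 72.1 against 97.1, 60.1 and 67.1. The follicular helper list was also added after the values were seen. Of its 9 genes tested, 4 were higher at an unadjusted p under 0.05, against 4.91% of all genes.

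Genes of cytotoxic lymphocytes followed the same direction, with 10 of 19 tested higher at an unadjusted p under 0.05, none lower and a median of 0.42, against 4.91% of all genes higher at that p. Tbx21 encodes T-bet, which directs interferon-gamma production in T and natural killer cells. It was at 8.41, 7.72 and 6.89 RPKM in Con-FMT and at 4.79, 2.95 and 3.17 in STZ. T-bet mRNA thus differed by 0.92 ± 0.17 on the log2 scale (adjusted p = 0.243). The granzyme gene Gzmk was at 2.60, 3.52 and 3.26 against 0.86, 0.83 and 1.76, and the chemokine gene Ccl5 at 172, 178 and 115 against 106, 78.6 and 82.3. None of these overlapped. The pore-forming protein gene Prf1 and the death ligand gene Fasl lay at the other end of the list, with log2 fold changes of -0.02 and -0.01. Leaving out a library moved the median between 0.37 and 0.49.

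B cell identity genes differed less than the germinal centre genes. Of 23 tested, 2 were higher at an unadjusted p under 0.05, against 4.91% of all genes, and the median was 0.27. Fcer2a, the low-affinity IgE receptor of follicular B cells, was at 95.2, 94.7 and 73.7 RPKM in Con-FMT and at 71.7, 27.3 and 42.9 in STZ, so the groups were apart by a narrow margin. Without STZ replicate 1, 12 of the 23 B cell genes passed the adjusted threshold, all higher (4.74% of all genes), and the median was 0.52. Plasma cell genes had a median of 0.10, with none of 20 past an unadjusted p of 0.05. Without STZ replicate 1 their median was 0.24 and 4 passed the adjusted threshold, all higher, against 4.74% of all genes.

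The MHC class II genes encode the molecules that present peptides to helper T cells, and a pair of them spread widely within STZ. H2-Eb1 was at 342, 312 and 328 RPKM in Con-FMT and at 144, 20.3 and 11.7 in STZ, with Con at 242, 269 and 258. The Con-FMT libraries were close together and all above STZ, whose own libraries were far apart (log2 fold change 3.27 ± 0.76, adjusted p = 0.343). H2-Ea-ps, of the same cluster, is annotated as a polymorphic pseudogene, a gene intact in some genomes and not in others. It was at 324, 300.0 and 505 against 214, 35.8 and 31.5. In Con it ranged from 28.5 to 302 and in A10-FMT from 21.7 to 399, so low values of it also occurred outside STZ. Class II genes are a family with shared sequence, so where reads could be split between relatives these values are uncertain. The mice were of an outbred stock and their genotypes at these genes are not given. The part of genotype in these values was not tested. H2-DMb1, which loads peptides, was at 165, 159 and 163 against 178, 92.4 and 96.0, so STZ replicate 1 lay above Con-FMT and the other STZ libraries below it. Of 15 class II genes, 2 were higher at an unadjusted p under 0.05 (4.91% of all genes) and the median was 0.25. Without STZ replicate 1 the adjusted threshold was passed by 11, all higher (4.74% of all genes).

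Further genes took part in the higher group without belonging to a lymphocyte list. Basp1, a membrane-bound signalling protein, had the smallest unadjusted p after Kap. It was at 28.8, 34.0 and 26.5 RPKM in Con-FMT and at 12.6, 11.6 and 13.5 in STZ, without overlap, and the difference was 1.18 ± 0.12 (log2, adjusted p = 0.0801). Con lay between, at 16.8, 25.1 and 19.4. Hmces, which shields abasic sites in DNA, was at 27.7, 35.1 and 29.5 against 18.2, 18.5 and 19.5. S100a10, the partner of annexin A2, was at 223, 185 and 187 against 120, 104 and 131. Also higher by the same rule were LOC108167383, H2-M2, Gm6958 and Gm8909, with log2 fold changes of 0.64 to 2.47. H2-M2 belongs to the MHC class I family, whose members share sequence, so its value is uncertain.

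Retnla encodes a secreted protein of alternatively activated macrophages and of fat tissue. It was at 17.0, 14.1 and 5.0 RPKM in Con-FMT and at 1.40, 0.90 and 0.45 in STZ. All Con-FMT libraries were above all STZ libraries (log2 fold change 2.65 ± 0.39, adjusted p = 0.187), but replicate 3 was much the lowest of the Con-FMT libraries. In Con, Retnla was at 4.79, 17.5 and 12.7. Fat genes were also lowest in that library among the Con-FMT libraries. Cfd, the adipsin of fat cells, was at 68.2, 26.8 and 3.14 in Con-FMT against 2.75, 4.79 and 0.85 in STZ, and the 20 fat genes summed to 290, 184 and 137 against 176, 153 and 120. Their part in the Retnla result was not tested.

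On the lower side, the metallothioneins stood out. Metallothioneins bind zinc and copper, and their genes are switched on by zinc through the factor MTF1 and by glucocorticoids. Mt2, on chromosome 8 at 94172664 to 94173568, was at 79.4, 78.6 and 102 RPKM in Con-FMT and at 318, 239.9 and 193 in STZ. Mt1, its neighbour at 94179082 to 94180327, was at 113, 103 and 128 against 297, 228 and 211. Both were lower in every Con-FMT library than in any STZ library, with log2 fold changes of -1.50 ± 0.19 (adjusted p = 0.144) and -1.08 ± 0.16 (adjusted p = 0.168). Con covered 57.4 to 104 for Mt2 and 78.3 to 145 for Mt1, overlapping Con-FMT. Over the fits that left out a library the log2 fold change of Mt2 ran from -1.67 to -1.31.

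The promoters of this pair are shown because their shared feature is the metal response element, to which MTF1 binds. Capitals mark its core, searched on both strands as the alternative patterns TGCACNC and TGCGCNC, in RefSeq promoter windows of 300 bases that span the annotated start (GRCm38.p6). The Mt2 window is chr8:94172368-94172667 and the Mt1 window chr8:94178839-94179138, both on the plus strand.
Mt2: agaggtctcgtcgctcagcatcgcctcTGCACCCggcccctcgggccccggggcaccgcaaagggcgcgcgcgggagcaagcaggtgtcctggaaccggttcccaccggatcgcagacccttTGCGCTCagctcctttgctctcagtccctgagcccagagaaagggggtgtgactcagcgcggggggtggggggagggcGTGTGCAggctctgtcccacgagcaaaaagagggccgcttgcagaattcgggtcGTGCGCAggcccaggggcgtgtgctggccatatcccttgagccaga
Mt1: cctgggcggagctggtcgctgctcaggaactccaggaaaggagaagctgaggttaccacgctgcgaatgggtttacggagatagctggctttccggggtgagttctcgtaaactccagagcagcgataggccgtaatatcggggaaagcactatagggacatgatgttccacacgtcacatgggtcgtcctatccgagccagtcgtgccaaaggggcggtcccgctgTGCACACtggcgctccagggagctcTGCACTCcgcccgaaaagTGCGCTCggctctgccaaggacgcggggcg
Mt2 held 4 matches and Mt1 held 3. The core is short, and 28.2% of the 27025 genes with a promoter in the table had at least 1 match. Among metallothionein and zinc transport genes, a list added after the values were seen, 6 of 10 (60%) had one. The rest of that list did not share the difference. Slc30a1, the zinc exporter that is a further known target of MTF1, was at 6.13, 5.71 and 6.22 RPKM in Con-FMT and 6.51, 8.08 and 7.80 in STZ, apart by a small step (log2 fold change -0.27 ± 0.12), and Mtf1 itself overlapped at 4.49, 4.64 and 5.22 against 4.29, 5.23 and 5.83. The median of the 9 genes tested was -0.07.

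Targets of the integrated stress response, the programme that cells run through the factor ATF4 when amino acids are short, were also lower in Con-FMT. Asns, which makes asparagine, lies on chromosome 6 at 7675169 to 7693254. It was at 46.3, 39.8 and 55.2 RPKM in Con-FMT and at 86.9, 94.7 and 86.2 in STZ. The groups were well apart (log2 fold change -0.92 ± 0.13, adjusted p = 0.168), and Con lay at 54.9, 40.9 and 31.3. Slc7a5, a carrier of large neutral amino acids, was at 24.3, 27.1 and 30.1 against 39.0, 52.8 and 44.4. Chac1, which degrades glutathione, was at 0.75, 0.48 and 0.73 against 3.80, 2.55 and 1.15. The alanyl-tRNA synthetase gene Aars was at 42.4, 40.9 and 42.5 against 55.1, 58.0 and 49.0. No library of one group reached the other in these genes.

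ATF4 acts through the amino acid response element, and the windows of Asns (chr6:7693160-7693459, minus strand) and Chac1 (chr2:119350992-119351291, plus strand) show its core in capitals. It was searched on both strands as TGATGNAA.
Asns: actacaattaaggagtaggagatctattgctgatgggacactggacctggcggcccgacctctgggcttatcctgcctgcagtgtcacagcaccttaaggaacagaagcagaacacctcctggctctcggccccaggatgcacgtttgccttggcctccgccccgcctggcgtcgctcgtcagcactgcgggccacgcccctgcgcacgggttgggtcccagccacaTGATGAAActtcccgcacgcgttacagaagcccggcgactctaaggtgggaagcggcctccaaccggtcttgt
Chac1: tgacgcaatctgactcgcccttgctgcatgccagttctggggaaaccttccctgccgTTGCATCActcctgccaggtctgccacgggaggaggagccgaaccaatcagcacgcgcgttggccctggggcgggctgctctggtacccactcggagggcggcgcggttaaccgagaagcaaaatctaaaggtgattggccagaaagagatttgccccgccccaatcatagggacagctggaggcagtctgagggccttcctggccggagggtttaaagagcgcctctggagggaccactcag
Each held 1 match, which reads along the strand of the gene in Asns and against it in Chac1. Of all genes with a promoter in the table, 4.51% had a match, and of the 19 genes of the stress response list whose promoter was listed 8 (42.1%) had one. A match describes the letters of the window and does not show binding.

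Of 21 stress response genes tested, 18 had a negative fold change, 9 were lower at an unadjusted p under 0.05 and none was higher, beside 3.3% of all genes that were lower. The median was -0.20, and -0.27 to -0.19 over the fits that left out a library. The list was not uniform. Atf4, whose mRNA is controlled mainly in translation, was at 207, 213 and 197 RPKM in Con-FMT and 192, 237 and 197 in STZ, and Ddit3, which encodes CHOP, was at 32.7, 29.8 and 33.9 against 28.9, 31.8 and 35.8. Both overlapped. Trib3, an inhibitor of AKT that ATF4 and CHOP induce, was at 1.47, 1.61 and 1.96 against 5.74, 3.36 and 2.40.

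**Figure D2:**
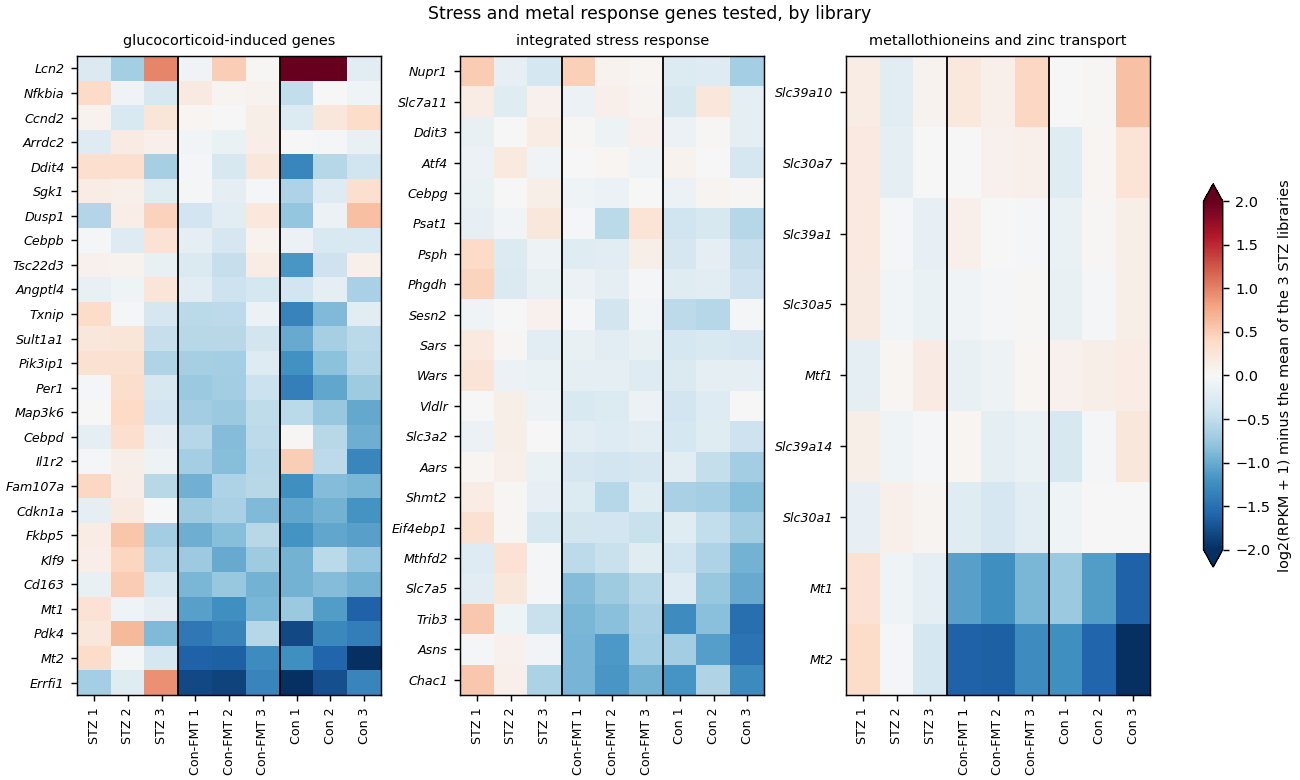
Genes of the glucocorticoid, integrated stress response, and metallothionein and zinc lists that were tested (rows, italic) in the STZ, Con-FMT and Con libraries (columns), coloured by log2(RPKM + 1) minus the mean of the 3 STZ libraries, from -2 (blue) to 2 (red). The lower rows of the first list, from Per1 to Errfi1, Trib3, Asns and Chac1 in the second and Mt1 and Mt2 in the third were blue in all Con-FMT libraries, and Atf4, Ddit3 and Mtf1 were near white.

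Genes that glucocorticoids induce had the lowest median of the lists with at least 3 tested members. Of 26 tested, 23 had a negative fold change, 15 were lower at an unadjusted p under 0.05, 12 did not overlap, and none was higher, against 3.3% of all genes lower at that p and 6.26% lower without overlap. The median was -0.58, and it stayed between -0.74 and -0.43 when a library was left out. Metallothioneins belong to this list too. Per1, a clock gene with a glucocorticoid response element, was at 8.89, 9.27 and 11.4 RPKM in Con-FMT and at 15.3, 20.2 and 12.2 in STZ. Il1r2, the decoy receptor for interleukin-1, was at 1.17, 0.93 and 1.34 against 2.41, 2.77 and 2.24 (log2 fold change -0.70 ± 0.13, adjusted p = 0.247). Errfi1, an inhibitor of the epidermal growth factor receptor, was at 8.48, 8.15 and 12.3 against 19.7, 27.2 and 61.7. In these genes no Con-FMT library reached the STZ range, although Per1 came close in STZ replicate 3.

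Fkbp5, the co-chaperone that is a standard readout of glucocorticoid action, overlapped because of that library, at 10.4, 11.4 and 14.3 RPKM in Con-FMT and 23.7, 31.9 and 12.8 in STZ. Klf9 was at 4.31, 3.38 and 4.36 against 8.67, 10.9 and 4.95, again with STZ replicate 3 the lowest of its group. Pdk4, which spares glucose by shutting pyruvate dehydrogenase, was at 2.52, 2.75 and 5.41 against 10.1, 13.9 and 4.13 and overlapped. Some well-known members hardly differed. Tsc22d3 was at 80.6, 71.6 and 109 against 104, 103 and 88.6, and Sgk1 at 19.3, 17.3 and 19.3 against 22.0, 21.4 and 16.5. The circadian list had a median of -0.04. In it 1 of 20 genes, Per1, was lower at an unadjusted p under 0.05, against 3.3% of all genes. Dbp, a clock output gene with a strong daily rhythm, was at 16.2, 16.8 and 17.2 in Con-FMT and at 21.2, 7.68 and 3.69 in STZ. STZ replicate 1 lay above Con-FMT and the other STZ libraries well below it.

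Other genes of the lower group were spread over several roles. Cdkn1a, the cell cycle inhibitor p21, was at 10.3, 10.8 and 9.01 RPKM in Con-FMT and at 15.2, 20.0 and 17.7 in STZ. Csf1, the growth factor of macrophages, was at 20.7, 21.4 and 23.6 against 41.1, 35.8 and 32.8. Sphk1, the kinase that makes sphingosine-1-phosphate, was at 19.6, 18.4 and 17.2 against 32.0, 27.5 and 32.4. All were lower in each Con-FMT library, with log2 fold changes of -0.75 ± 0.13, -0.71 ± 0.12 and -0.71 ± 0.11 (adjusted p = 0.209 for each). Gm46257, Hopx, Atp1b2 and Bex4 completed this group by the same rule, with log2 fold changes of -1.16 to -0.62.

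Cd163, the scavenger receptor by which macrophages clear haemoglobin, is one of the spleen proteins the study stained for. Its mRNA was at 1.34, 1.59 and 1.27 RPKM in Con-FMT and at 2.96, 5.24 and 2.43 in STZ, with Con at 1.28, 1.42 and 1.28. The paper reports that STZ lowered the protein in spleen and that A10-FMT restored it. Between Con and STZ the mRNA, a different measure, thus stood the other way. The STZ libraries were all above the others, and STZ replicate 2 was well above its own group (log2 fold change -0.87 ± 0.22, adjusted p = 0.376). Slc40a1, which encodes the iron exporter ferroportin, was at 52.97, 57.9 and 72.3 in Con-FMT against 87.3, 74.8 and 78.5. Spic, the factor that makes red pulp macrophages, was at 42.7, 40.7 and 45.6 against 58.6, 50.6 and 49.4. Of 30 genes of red pulp macrophages and iron recycling, 8 were lower at an unadjusted p under 0.05 and none higher, against 3.3% of all genes lower, with a median of -0.14. Hmox1, the enzyme that opens haem, and the ferritin gene Fth1 overlapped, with log2 fold changes of -0.04 and -0.02.

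For the other genes whose proteins the study measured, in spleen or testis, the groups overlapped. Ccl21a, the chemokine of the T cell zone, was at 939, 1161 and 967 RPKM in Con-FMT and 1724, 1014 and 643 in STZ. Its receptor Ccr7 was at 43.5, 44.3 and 46.5 against 43.2, 28.3 and 46.4. The proliferation marker Mki67 was at 124, 137 and 147 against 81.2, 205 and 205. The STZ libraries of Ccl21a and Mki67 reached both sides of the Con-FMT range. Without STZ replicate 1 the log2 fold change of Mki67 was -0.59, with an adjusted p of 0.021 (limma). Trp53 and Bax, which act in programmed cell death, had log2 fold changes of -0.04 ± 0.13 and 0.11 ± 0.11. A list of 20 genes for such proteins and for iron handling had 18 tested members. Of these, 4 were lower at an unadjusted p under 0.05, against 3.3% of all genes, and none was higher.

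Red cell genes depended on STZ replicate 1. Of 37 erythroid genes tested, 3 were lower at an unadjusted p under 0.05, against 3.3% of all genes, and the median was -0.09. Car1, the carbonic anhydrase of red cells, was at 417, 431 and 328 RPKM in Con-FMT and at 734, 829 and 643 in STZ, without overlap (log2 fold change -0.91 ± 0.16, adjusted p = 0.209). Rhag, of the Rhesus complex, was at 78.3, 81.2 and 86.6 against 70.5, 157 and 144, so STZ replicate 1 lay below Con-FMT and the other STZ libraries above it. Without STZ replicate 1 the median was -0.54 and 27 of 37 passed the adjusted threshold, all lower, against 2.35% of all genes in that fit, whereas without STZ replicate 2 the median turned to 0.10. The 35 proliferation genes had a median of -0.12 with none past an unadjusted p of 0.05 in either direction, and without STZ replicate 1 the median was -0.32 and 7 passed the adjusted threshold, all lower (2.35% of all genes).

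Platelet genes lay higher, with 29 of 30 fold changes above 0 and a median of 0.62, but few separated the groups. At an unadjusted p under 0.05, 13 were higher (4.91% of all genes) and 1 lower. Only 2 higher genes did not overlap, against 6.69% of all genes. Ppbp, the platelet basic protein, was at 304, 312 and 241 RPKM in Con-FMT and at 86.8, 82.6 and 281 in STZ. Pf4 was at 286, 368 and 237 against 134, 94.1 and 286. STZ replicate 3 was inside the Con-FMT range for both, and leaving it out moved the median to 0.93. Nrgn was apart, at 51.6, 57.9 and 33.5 against 17.6, 14.9 and 30.3. In Con, Pf4 was at 325 to 897.

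Neutrophil genes split. Of 23 tested, 18 had a positive fold change and 5 a negative one. None was higher and 4 were lower at an unadjusted p under 0.05, against 3.3% of all genes lower. The median of 0.26 rested on single libraries, since leaving out STZ replicate 2 turned it to -0.02 and leaving out STZ replicate 3 raised it to 0.77. The 4 were Chil3, a chitinase-like protein, Stfa2l1, a cysteine protease inhibitor, Retnlg, a resistin-like protein, and Csf3r, the receptor for G-CSF. Chil3 was at 36.1, 49.2 and 41.1 RPKM in Con-FMT and at 56.5, 73.9 and 59.5 in STZ, and Csf3r was at 12.5, 10.9 and 11.0 against 14.5, 13.1 and 15.5. None of these libraries overlapped. Stfa2l1 was at 2.26, 5.76 and 4.82 RPKM in Con-FMT and at 31.0, 29.0 and 6.74 in STZ, and Retnlg was at 14.8, 28.0 and 11.3 against 30.5, 35.6 and 48.7. Neither overlapped. In Con these genes spread far more widely, with Retnlg between 13.5 and 249.8. Monocyte and dendritic cell genes had a median of 0.13, with 1 of 25 higher at an unadjusted p under 0.05, against 4.91% of all genes.

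Receptors that read microbes and their products showed little difference. Of 33 microbial sensing genes, which include the Toll-like and NOD-like receptors, none passed an unadjusted p of 0.05 in either direction and the median was 0.06. Tlr4, the receptor for endotoxin, was at 3.03, 2.89 and 3.47 RPKM in Con-FMT and 3.98, 3.26 and 3.42 in STZ. Nod2, which senses cell wall fragments, was at 3.04, 2.42 and 2.90 against 2.64, 2.54 and 3.28. Both overlapped. Pglyrp2, which cuts peptidoglycan, had the smallest p of the list, with 11.8, 12.7 and 14.2 against 12.6, 8.30 and 9.11. Interferon-stimulated genes had a median of 0.08, and 1 of 37 was higher at an unadjusted p under 0.05, against 4.91% of all genes. That gene was Gbp2, a guanylate-binding protein, at 27.9, 24.6 and 21.8 against 16.8, 15.4 and 21.3.

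Of 8 receptors and carriers for short-chain fatty acids and bile acids, 1 was higher at an unadjusted p under 0.05, against 4.91% of all genes. That was Slc16a3, an exporter of lactate, at 5.78, 5.03 and 5.02 RPKM in Con-FMT and 3.42, 3.63 and 3.36 in STZ. The fatty acid receptor gene Ffar2 overlapped, at 12.6, 9.93 and 10.7 against 12.3, 8.56 and 7.42. In the gut homing list, Itgb7, the integrin chain that takes lymphocytes to the gut wall, was at 70.2, 71.6 and 69.7 against 55.6, 40.3 and 46.8, without overlap (log2 fold change 0.57 ± 0.13, adjusted p = 0.322). Ahr, a receptor for tryptophan products of bacteria, was at 2.93, 3.33 and 3.23 against 4.97, 3.93 and 3.61, also without overlap. None of the 7 genes of the Ahr and xenobiotic list passed an unadjusted p of 0.05. Among 26 cytokine and receptor genes 1 was higher and 5 were lower at that p, against 4.91% and 3.3% of all genes. One of the lower genes was Il1r1, the interleukin-1 receptor, at 8.5, 9.5 and 9.22 against 13.9, 17.6 and 12.3.

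Metabolic lists stayed near 0. The medians were 0.02 for 31 insulin and glucose genes, 0.09 for 31 genes of cholesterol and fatty acid synthesis, -0.06 for 25 genes of fatty acid oxidation and -0.12 for 25 antioxidant enzymes. At an unadjusted p under 0.05 these lists had 1, 3, 0 and 0 members higher and 1, 2, 4 and 3 lower. The shares over all genes were 4.91% higher and 3.3% lower. Irs2, the insulin receptor substrate, was lower, at 3.80, 3.99 and 5.06 RPKM in Con-FMT and 5.92, 6.05 and 6.55 in STZ. Gsta4, a glutathione transferase, was at 14.0, 15.1 and 16.1 against 28.0, 35.6 and 17.1. In Gsta4, STZ replicate 3 lay just above the Con-FMT libraries and the other STZ libraries far above.

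Stromal genes and early response genes moved in both directions. Ch25h, which makes the oxysterol guide of B cells, was at 3.16, 1.87 and 1.90 RPKM in Con-FMT and at 4.55, 4.88 and 5.72 in STZ. Cxcl12, the chemokine that holds plasma cells and progenitors, was at 186, 183 and 225 against 309, 318 and 256. Ltb, a lymphotoxin chain that lymphocytes make to sustain that stroma, went the other way, at 329, 292 and 250.1 against 239, 133 and 155. None overlapped. Of 22 white pulp genes 3 were higher and 3 lower at an unadjusted p under 0.05, against 4.91% and 3.3% of all genes. The median of these 22 was 0.00, and 0.28 without STZ replicate 1. Among the 28 immediate early genes 3 were higher and 4 lower at an unadjusted p under 0.05, against the same shares of 4.91% and 3.3%. Klf2, which keeps T cells resting and on the move, was at 125, 104 and 102 against 91.3, 57.1 and 61.7. Egr1, induced by antigen receptor signals, was at 6.87, 7.76 and 6.30 against 9.80, 26.1 and 36.5. Neither overlapped.

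The median of 21 heat shock genes was 0.12, but leaving out STZ replicate 1 turned it to -0.06 and leaving out STZ replicate 3 moved it to 0.51. The medians of further lists lay near 0 over all 6 libraries. The median was -0.04 for 18 complement genes, -0.06 for 26 p53 and apoptosis genes and -0.08 for 24 endothelial genes. It was -0.01 for 26 matrix and smooth muscle genes and 0.03 for 12 genes of lymph nodes and gut homing. In these lists, heat shock included, 1 to 5 members were higher and 0 to 3 lower at an unadjusted p under 0.05. The shares over all genes were 4.91% and 3.3%. Matrix and smooth muscle had 5 higher and 3 lower, endothelium 2 and 3, and complement 2 and 2, so their members went both ways. The 6 globin genes tested had a median of 0.56 and none past that p, and without STZ replicate 1 the median was 0.02. Cma1, a mast cell chymase, was at 2.84, 1.52 and 2.14 RPKM in Con-FMT and at 0.58, 0.49 and 0.84 in STZ, without overlap (log2 fold change 0.94 ± 0.18, adjusted p = 0.247). The mast cell list was added after the values were seen. Of its 4 genes tested, 1 was higher and 1 lower at an unadjusted p under 0.05, against 4.91% and 3.3% of all genes. The lower one was Kit, with log2 fold changes of -0.34 to -0.24 over the fits that left out a library.

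**Figure D3:**
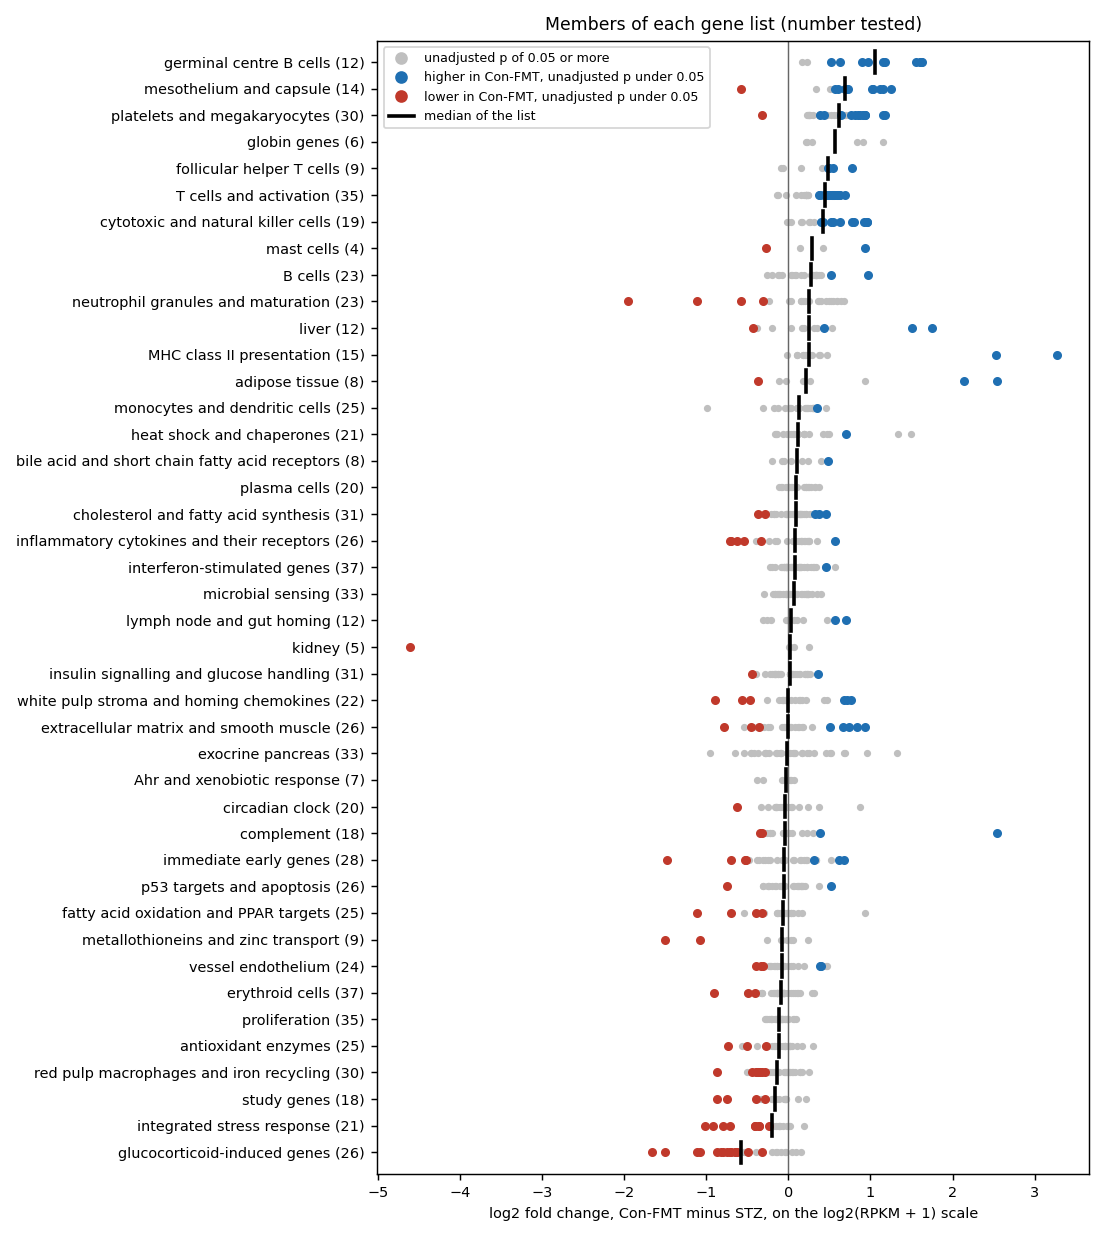
Log2 fold change (Con-FMT minus STZ, horizontal axis, log2(RPKM + 1) scale) of each tested member of the gene lists with at least 3 tested members, with the number tested in parentheses and the median as a black bar. Germinal centre genes had the highest median (1.06) and glucocorticoid-induced genes the lowest (-0.58), and blue and red points mark members at an unadjusted p under 0.05.

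Transcripts of neighbouring organs were counted in the same way. Mesothelial genes, which mark the capsule of the spleen, were higher in Con-FMT, with 10 of 14 at an unadjusted p under 0.05, 1 lower and a median of 0.70, against 4.91% of all genes higher. The 15 genes of the list summed to 128, 126 and 56.2 RPKM in Con-FMT and to 62.5, 52.8 and 37.3 in STZ, with a narrow overlap. Msln, which encodes mesothelin, was at 17.1, 16.4 and 6.14 against 5.75, 5.58 and 4.94. Without Con-FMT replicate 3 the median was 1.02. Postn, a matrix gene of fibroblasts, was at 11.9, 14.2 and 10.4 against 6.81, 7.01 and 4.14, and the collagen gene Col3a1 was at 34.4, 31.5 and 19.2 against 17.1, 12.4 and 15.8, both without overlap. Liver genes summed to 234 to 332 in Con-FMT and to 206 to 270.1 in STZ, with the albumin gene Alb at 8.80, 10.3 and 1.19 against 0.32, 1.45 and 0.95. Testis and epididymis genes summed to 1.48 to 2.57 in Con-FMT and to 4.15 to 11.7 in STZ. In Con they reached 20.1 to 315.1. The groups without a transplant but with AOS were as low as Con-FMT, at 2.15 to 3.85 in A10 and 1.66 to 3.61 in STZ-A10, and A10-FMT was at 1.33 to 2.03. Skeletal muscle genes overlapped, with sums of 14.2 to 16.5 against 12.1 to 19.2. The part of these tissues in other results was not tested.

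Pancreas transcripts were present in all 6 libraries. The 37 exocrine genes summed to 4385, 2644 and 4391 RPKM in Con-FMT and to 8512, 3861 and 1883 in STZ, so the groups overlapped. The median of the 33 tested was -0.02, but it was 0.53 without STZ replicate 1, with 4 past the adjusted threshold, and -0.48 without STZ replicate 3. The insulin gene Ins2, too low to be tested, was at 2.26, 1.72 and 0.22 in Con-FMT and was listed at 0 in each STZ library. Ins1 was at 0.74, 0.46 and 0 against 0 in each STZ library. Both insulin genes were also at 0 in all Con libraries, in which the exocrine genes summed to 39.2 to 2813, and in the A10-FMT libraries Ins2 ranged from 0.21 to 20.0. The glucagon gene Gcg, of the alpha cells, was at 0.28, 0.36 and 0.07 in Con-FMT and at 0.07, 0.07 and 0 in STZ. The levels of these hormone genes, near the bottom of the scale, have no test behind them.

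**Figure D4:**
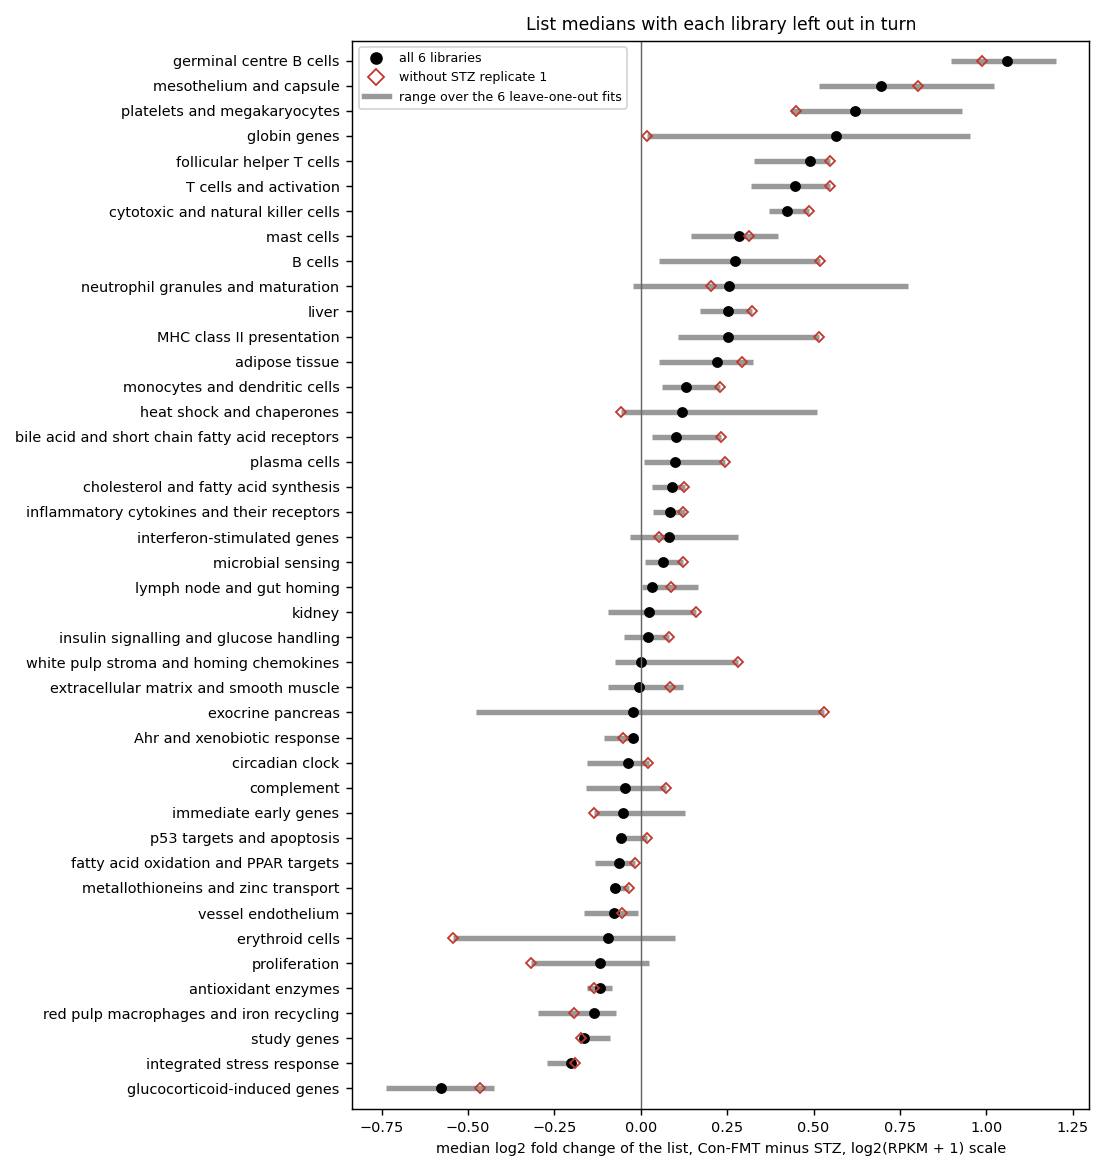
Median log2 fold change of each gene list (Con-FMT minus STZ, log2(RPKM + 1) scale, horizontal axis) over all 6 libraries (black points), without STZ replicate 1 (open diamonds) and the range over the fits that leave out each library in turn (grey bars). The germinal centre and glucocorticoid bars lay wholly on their own side of 0, and those of the erythroid, proliferation and exocrine pancreas lists crossed it.

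Set beside the transplant from AOS-fed donors, the control transplant differed in 1 gene at the adjusted threshold (0.00811% of 12324). Gdpd3, a lipid phosphodiesterase, was at 27.3, 36.6 and 29.2 RPKM in Con-FMT and at 0.36, 0.37 and 0.27 in A10-FMT (adjusted p = 0.000156). It did not separate Con-FMT from STZ, where it stood at 26.9, 76.0 and 3.08. At an unadjusted p under 0.05, 274 genes (2.22%) were higher and 1010 (8.2%) lower in A10-FMT than in Con-FMT, with a median shift of -0.17 over all genes. Mt2 was at 151, 123 and 367 in A10-FMT, above Con-FMT in all 3 libraries. Both comparisons share the Con-FMT libraries. Of the 12 germinal centre genes, 2 were lower in A10-FMT at an unadjusted p under 0.05, against 8.2% of all genes, and of 35 T cell genes 15 were. Of 37 erythroid genes, 19 were higher in A10-FMT at that p and none lower, against 2.22% of all genes higher. The globin genes took a mean of 36.8% of the summed RPKM in A10-FMT and 28.2% in Con-FMT. RPKM is a relative scale, and the part of red cell RNA in the lower T cell values was not tested.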

How the data were processed

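RNA of mouse spleen was enriched with oligo(dT) beads and sequenced by the study on an Illumina instrument. The authors deposited 1 table of RPKM values, in which reads per gene are scaled to gene length and mapped reads. The notes of the submitters name Bowtie 0.12.2 and mm10, whereas the methods of the study name SOAPaligner, and the annotation is not given in the sources used here. No counts were used, so depth is unknown. Of 19326 lines, 6 with 3 repeated names were left out, and 26 names had been turned into dates.

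Genes with at least 1 RPKM in at least 3 of the 6 libraries were fitted with limma 3.58.1 (R 4.3.3, trend, 2-sided) on log2(RPKM + 1), with p-values adjusted over all 12324 genes (Benjamini-Hochberg). Fold changes on this scale understate those of low genes. The fit was tested on simulated data. Named by rule were genes past the threshold, the 12 in each direction with the smallest p among those without overlap and with a mean of at least 5 RPKM in the higher group, 6 genes of proteins the study measured, and up to 4 of each list with the smallest p. Some genes that the rule names are not reported here. All other genes named were chosen after their values were seen. The members and the 41 lists were chosen with earlier results of these data known, and 4 lists were added later. Positions are from GENCODE M21 (98.7% of symbols matched), and figures were drawn with matplotlib 3.10.9.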

Additional observations from a re-analysis of the deposited data

How the results depend on the processing

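The number of genes past the adjusted threshold, 1 over all 6 libraries (limma), was 2 without a filter on low values (Kap and Miox) and 0 where all 6 libraries had to reach 1 RPKM, since Kap then left the test. With array weights, whose estimation did not converge, it was 6020, with 6881 at an unadjusted p under 0.05 against 1012. The fit over all 18 libraries gave 627 at that p, 307 higher and 320 lower, where the 6 libraries gave 605 and 407. After rescaling without globin genes the split was 994 and 433. Leaving out each library gave 1 to 874 past the adjusted threshold and 472 to 3084 at the unadjusted p. It was 874 without STZ replicate 1, 48 without STZ replicate 3, 4 without Con-FMT replicate 3 and 2 without Con-FMT replicate 1. At the unadjusted p it was 550 without STZ replicate 2, 554 without Con-FMT replicate 1 and 472 without Con-FMT replicate 2. The cause was not tested.

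With the replicate number as a block, 2 genes passed, Kap and Retnla. Same-numbered libraries deviated together with r of 0.052, 0.064 and 0.030, none over 0.1, so the numbers were not taken to pair the libraries.

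For A10-FMT against Con-FMT the count of 1 became 0 with all 18 libraries in the fit, and 3 and 2 without A10-FMT replicates 2 and 3, in a range of 1 to 3. Unknown depth limits genes near 0, as with the kidney and insulin genes. Quantile normalization, median centring and a pseudocount of 0.1 kept the count at 1.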
